A study of Homo sapiens with 8 samples.

Results

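The miR-30 family was described in small RNA libraries of macrophage exosomes, with both arms of its hairpins. Members were all entries named miR-30a, miR-30b, miR-30c, miR-30d or miR-30e followed by an arm, which gave 8 of the 286 entries of the exosome table. They were 5 5p arms (miR-30a-5p to miR-30e-5p) and 3 3p arms (miR-30a-3p, miR-30d-3p and miR-30e-3p). Members were chosen by name, and the family itself was selected on its read counts and shares in both libraries, so all exosome values below are a description and carry no test. The exosomes, small vesicles that cells release, came from THP-1, a human monocytic leukaemia line, as M2-exo (1 library) and M0-exo (1 library). M2 and M0 are the usual names for alternatively activated and unpolarised macrophages, and the labels do not name the agents used to obtain them. The series also holds mRNA of Caco-2, a human colorectal carcinoma line, in 3 libraries of cells treated with M2-exo and 3 libraries of cells given PBS, called untreated. The labels call both lines wild type, give their cell type as stem cells, and name media with 10% serum for THP-1 and 18% serum for Caco-2; dose and time of treatment are not given.

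MicroRNAs act as guides for Argonaute proteins. A hairpin precursor is cut to a duplex, either arm of which can be loaded, and the seed (bases 2 to 8) sets which messenger RNAs are bound and repressed. The miR-30 family is made from clustered hairpins, and its 5p arms share a seed. It is known for restraining Snail and the loss of epithelial character, for limiting autophagy through Beclin 1, and for being abundant in epithelia.

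The sequences show what sets the members apart. RefSeq sequences (GRCh38.p14) were matched for 5 of the 8 members, and the seed is in capitals.
miR-30c-5p: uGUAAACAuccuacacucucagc
miR-30a-5p: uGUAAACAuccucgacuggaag
miR-30e-5p: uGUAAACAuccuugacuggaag
miR-30e-3p: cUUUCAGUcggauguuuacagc
miR-30a-3p: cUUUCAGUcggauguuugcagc
The 3 5p arms were identical from base 1 to base 12. Positions were counted from 1 at the 5′ end. Over the 22 bases compared, miR-30a-5p and miR-30e-5p differed by 1 substitution (C13U), and miR-30a-5p and miR-30c-5p by 5 (C13A, G14C, G18C, G19U and A20C). The 3p arms of miR-30a and miR-30e also differed by 1 base (G18A). How many mismatches the read assignment allowed is not stated, so counts of entries that differ by 1 base are uncertain. The mature miR-30c-5p is the same in MIR30C1 and MIR30C2, and its counts cannot be assigned to either gene.

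The hairpin of miR-30e is the member whose 3p arm was counted more often than its 5p arm. It is shown beside that of miR-30a, its closest relative among the matched members, with the mature arms in capitals. MIR30E lies at chr1:40754355-40754446 on the plus strand and MIR30A at chr6:71403551-71403621 on the minus strand.
MIR30E: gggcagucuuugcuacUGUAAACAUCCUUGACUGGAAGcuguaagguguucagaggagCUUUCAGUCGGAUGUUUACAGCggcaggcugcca
MIR30A: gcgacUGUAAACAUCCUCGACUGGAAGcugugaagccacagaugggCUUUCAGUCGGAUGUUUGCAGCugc

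MIR30E and MIR30C1 lie 2837 bases apart on chromosome 1, inside and on the strand of NFYC, which encodes a subunit of the transcription factor NF-Y. MIR30C2 and MIR30A lie 26519 bases apart on chromosome 6, inside and on the strand of the long noncoding gene LINC00472. MIR30B and MIR30D lie on chromosome 8 in the gene table. Each miR-30 gene thus has a neighbour of the same family.

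Depth was low, with 9929 miRNA counts in M2-exo and 13584 in M0-exo. Whether these are whole libraries is not stated, so shares and limits describe the deposited counts. All exosome intervals are 95% and cover counting error only. Several reads may come from 1 molecule, which the intervals do not allow for. With 1 library per group the intervals compare 2 libraries, not 2 conditions. The blood cell markers miR-142-3p, miR-142-5p, miR-223-3p and miR-223-5p, which mark blood and myeloid cells, together held 2 counts in M2-exo and 10 in M0-exo, and miR-142-3p and miR-223-3p were at 0 in M2-exo. Of 4 red blood cell miRNAs listed, miR-451a and miR-486-5p together held 195 counts in M2-exo and 174 in M0-exo. The others, miR-144-3p and miR-144-5p, had no entry. The 6 epithelial miRNAs with entries, of 8 listed, held 35 counts in M2-exo and 28 in M0-exo. Their part in the miR-30 values was not tested.

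The family held 906 counts in M2-exo and 953 in M0-exo. Its share was 9.12% in M2-exo (8.57 to 9.71, exact Clopper-Pearson) and 7.02% in M0-exo (6.59 to 7.46), a ratio of 1.30 (1.19 to 1.43, exact conditional binomial). In both libraries nearly all of it was 5p arm and most of it was a single entry. All 8 members were counted in M0-exo and 6 in M2-exo.

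The leading member was miR-30c-5p, with 687 counts in M2-exo and 661 in M0-exo. It was the third most abundant entry of M2-exo and the fifth of M0-exo. It made up 75.8% of the family in M2-exo and 69.4% in M0-exo. Next came miR-30d-5p, with 129 counts or 1.30% of M2-exo (1.09 to 1.54) and 139 counts or 1.02% of M0-exo (0.861 to 1.21). The step between these leading members was large in each library, as miR-30c-5p was 5.33 times as frequent as miR-30d-5p in M2-exo (4.41 to 6.48) and 4.76 times in M0-exo (3.95 to 5.75).

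The other 5p arms were scarce. For miR-30b-5p the counts were 29 in M2-exo and 27 in M0-exo. For miR-30a-5p they were 16 in M2-exo and 25 in M0-exo, and for miR-30e-5p 11 in M2-exo and 21 in M0-exo. The intervals of the shares of miR-30b-5p, miR-30a-5p and miR-30e-5p overlapped within M0-exo, so their order there is not resolved. In M2-exo miR-30b-5p, at 0.292% (0.196 to 0.419), overlapped with miR-30a-5p, at 0.161% (0.0921 to 0.262), and barely with miR-30e-5p, at 0.111% (0.0553 to 0.198).

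**Figure D1:**
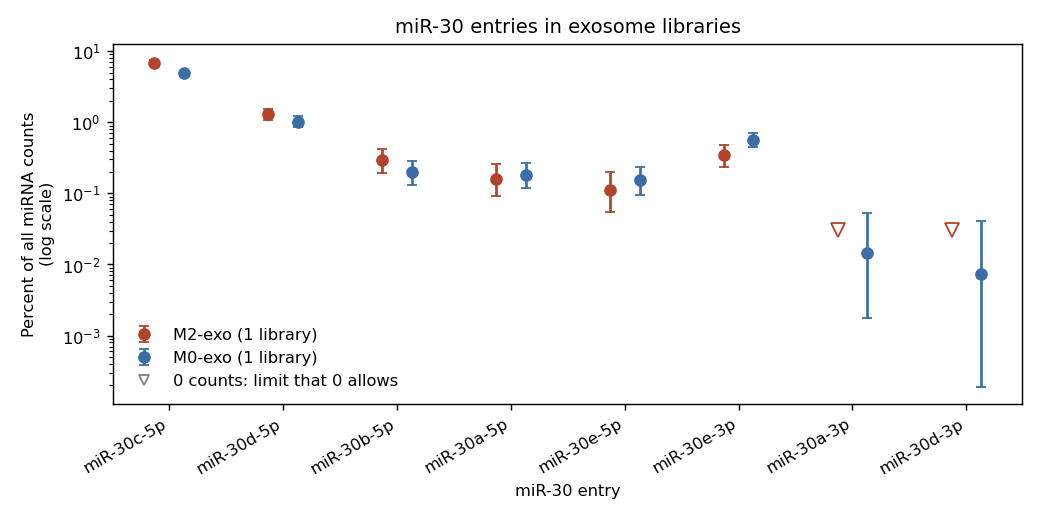
Share of all miRNA counts (percent, log scale) held by each miR-30 entry in M2-exo (left point of each pair) and M0-exo (right point), 1 library each; bars are 95% exact counting intervals and open triangles mark the limit that 0 counts allow. miR-30c-5p, at 6.92% of M2-exo and 4.87% of M0-exo, stands above miR-30d-5p and the scarce members, and miR-30e-3p is the leading 3p arm.

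Among 3p arms, miR-30e-3p held nearly all counts, with 34 in M2-exo and 77 in M0-exo. The remainder was 2 counts of miR-30a-3p and 1 of miR-30d-3p, both in M0-exo. Both were at 0 in M2-exo, which allows a share of up to 0.0302% (3 counts), so no change in them was detectable at this depth. No 3p arm of miR-30b or miR-30c was among the entries analysed here. For miR-30c, a count of 0 allows up to 0.437% of the miR-30c-5p counts in M2-exo and 0.454% in M0-exo.

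Arm use therefore differed among hairpins of the same family. The 3p arm made up 75.6% of miR-30e counts in M2-exo (60.5 to 87.1) and 78.6% in M0-exo (69.1 to 86.2). It made up 0% of miR-30d counts in M2-exo (0 to 2.82) and 0.714% in M0-exo (0.0181 to 3.92). For miR-30a the 3p share was 0% in M2-exo (0 to 20.6) and 7.41% in M0-exo (0.910 to 24.3). The miR-30e intervals thus lay wholly above those of miR-30a and miR-30d in both libraries. This is a contrast within each library, so it does not depend on how the libraries are scaled to each other.

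Across the table, 47 hairpins had entries for both arms and 16 of them had at least 50 counts over the libraries. Most were close to 1 arm only. Between 10% and 90% of 3p counts in both libraries were found in 6 of the 16: miR-30e, miR-27a, miR-99b, miR-486, miR-423 and miR-3184. The entries of miR-423 and miR-3184 have equal or nearly equal counts on opposite arms and may be the same reads, and so may the arms of miR-486. The 3p share of miR-30e was 3.02 percent points lower in M2-exo than in M0-exo, well inside the counting intervals.

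**Figure D2:**
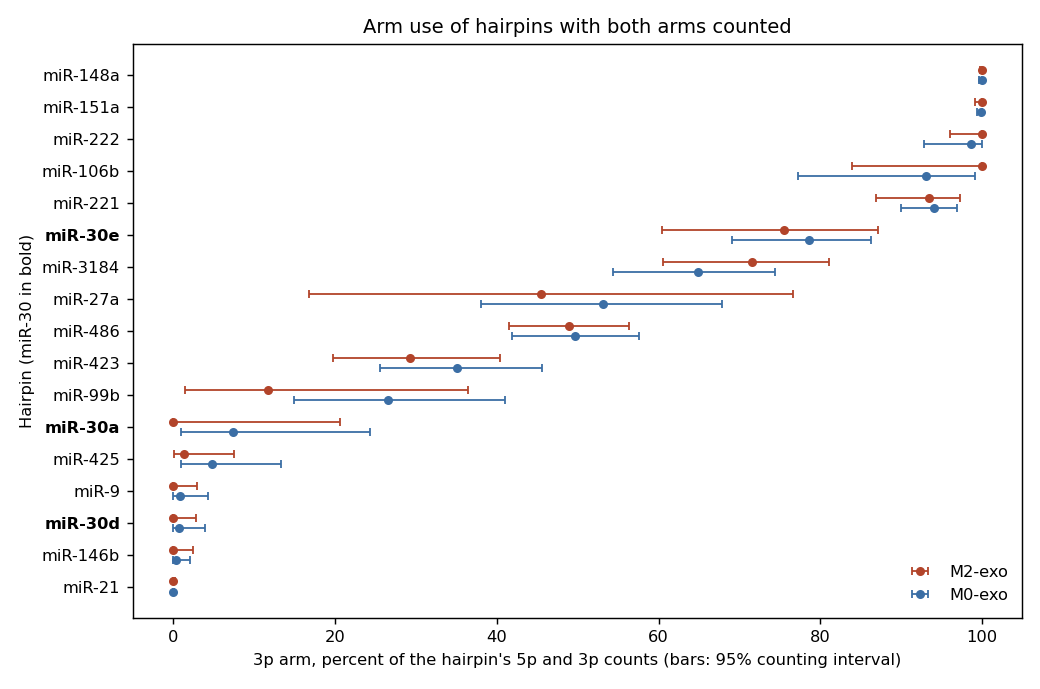
Share of the 3p arm among the 5p and 3p counts of each hairpin (percent; bars are 95% exact counting intervals) in M2-exo (upper point) and M0-exo (lower point), for the 16 hairpins with both arms counted and at least 50 counts, and miR-30a. miR-30e lies at 75.6% in M2-exo and 78.6% in M0-exo, while miR-30a and miR-30d lie at 0% in M2-exo and at 7.41% and 0.714% in M0-exo.

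For the family as a whole, 3p arms made up 3.75% of counts in M2-exo (2.61 to 5.20) and 8.39% in M0-exo (6.71 to 10.3), with intervals that do not overlap. Over all entries with a named arm, the 3p share was 36.8% in M2-exo and 34.4% in M0-exo. The lower family value in M2-exo went with a lower share of miR-30e and a higher share of miR-30c, while the 3p share within miR-30e was nearly the same. Set against miR-30c-5p, miR-30e-3p had 0.0495 counts per count in M2-exo (0.0340 to 0.0698) and 0.116 in M0-exo (0.0908 to 0.148). These intervals do not overlap, and this quantity does not depend on scaling either.

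The members thus fell on both sides of 1 when M2-exo was set against M0-exo. A higher share in M2-exo was found for miR-30c-5p (ratio 1.42, 1.28 to 1.58), miR-30d-5p (1.27, 0.991 to 1.63) and miR-30b-5p (1.47, 0.840 to 2.58). A lower share was found for miR-30a-5p (0.876, 0.437 to 1.71), miR-30e-5p (0.717, 0.312 to 1.55) and miR-30e-3p (0.604, 0.391 to 0.916). The interval left out 1 only for miR-30c-5p and miR-30e-3p, so the side of the other 4 is not resolved by the counts. No fold is given for miR-30a-3p and miR-30d-3p, which had at most 3 counts in each library.

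Summed by hairpin, both arms of miR-30e held 45 counts in M2-exo and 98 in M0-exo (ratio 0.628, 0.431 to 0.903). Its chromosome 1 neighbour miR-30c lay on the other side, although part of miR-30c-5p may come from chromosome 6. The 5p arms together gave a ratio of 1.37 (1.243 to 1.503) and the 3p arms one of 0.581 (0.377 to 0.879). Without miR-30c-5p, the remaining 7 members held 2.21% of M2-exo and 2.15% of M0-exo (ratio 1.03, 0.857 to 1.23). This sum joins the other 5p arms, with a ratio of 1.19 (0.9749 to 1.461), and the 3p arms.

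**Figure D3:**
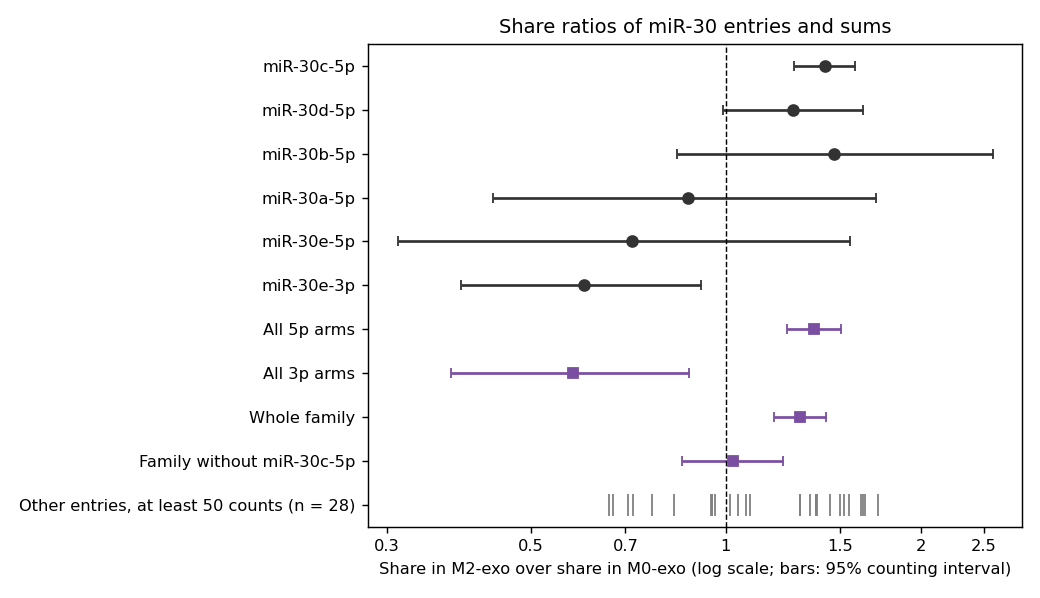
Ratio of the share in M2-exo to the share in M0-exo (log scale; bars are 95% counting intervals) for 6 miR-30 entries (circles), family sums (squares) and, as ticks, the 28 other entries with at least 50 counts. miR-30c-5p (1.42) and miR-30e-3p (0.604) have intervals on opposite sides of 1.

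These ratios were read against the whole table, limited to entries that reached 50 counts in M2-exo or M0-exo. Of 31 such entries, 64.5% had a ratio above 1, and 45.2% a ratio above 1 with an interval that left out 1. Ratios below 1 with such an interval made up 19.4%. The members among them were miR-30c-5p and miR-30d-5p above 1 and miR-30e-3p below. A ratio of at least 2 was reached by 0% and one of at most 0.5 by 0%. The median ratio in these 31 entries was 1.27, which is the value of miR-30d-5p itself. That member can therefore not be read against it. By ratio, miR-30c-5p (1.42, 1.28 to 1.58) stood in place 9 of the 31. A higher share in M2-exo was thus not particular to miR-30c-5p among these entries. The entry miR-30e-3p, with 34 counts in M2-exo and 77 in M0-exo, reached the minimum of 50 only through M0-exo, so its place among the 31 is not read as a result. With minimums of 20 and 10 counts, 6 of 64 and 13 of 84 entries passed 2-fold, with 0 miR-30 entries among them. Most members reached both minimums, but few of all entries passed 2-fold, so that 0 is not read as a result about the family.

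Scaling changed how far the family stood from 1. TMM factors, which assume that most entries do not differ, divided each ratio by 1.26 (log2 0.33). They put the family at 1.03 (0.942 to 1.13), miR-30c-5p at 1.13 (1.01 to 1.26) and miR-30d-5p at 1.01 (0.787 to 1.29). They put miR-30e-3p at 0.480 (0.310 to 0.727), past the 2-fold mark it did not reach by share.

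By seed, the 5 5p arms (GUAAACA) formed the fourth most abundant of 234 groups in both libraries, with 8.78% of M2-exo and 6.43% of M0-exo. The groups above it were led by miR-21-5p, the let-7 family and miR-148a-3p. Of the 286 entries, 249 had a matched sequence, with 88.8% of counts in M2-exo and 89.0% in M0-exo. An entry without one took the seed shared by the matched entries of its family and arm, as miR-30b-5p, miR-30d-5p and miR-30d-3p did. Otherwise it formed a group by its name, as miR-151a-3p did. For miR-30d-3p the seed is an assumption, because the 3p arms of miR-30c, which were not among the entries, have another seed (UGGGAGA). The 3p arms with the seed UUUCAGU ranked 24th in M2-exo and 19th in M0-exo. The 4 other entries of at least 50 counts with ratios nearest to that of the family were miR-423-5p and miR-3184-3p (1.30 each, with equal counts), miR-9-5p (1.35) and miR-92a-3p (1.38). This likeness rests on 2 libraries.

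The recipient cells were then examined for the hosts and targets of miR-30. Caco-2 totals ranged from 15608937 to 18324599 counts. The epithelial markers EPCAM, CDH1, CDH17, VIL1, CDX2, KRT8 and KRT18 summed to between 8077 and 10630 CPM (counts scaled to a common library size by TMM) in treated and between 9060 and 11463 CPM in untreated cells. The macrophage genes were PTPRC, CD14, CD68, CD163, ITGAM, CSF1R and LYZ. They summed to 10.4 to 16.3 CPM in treated and 12.3 to 18.5 CPM in untreated cells. CD68 was at 0 in all 6 libraries, PTPRC and CD163 were at 0 in the treated ones, and ITGAM was scarce. Nearly all of the sum came from CD14, CSF1R and LYZ, which were counted in every library. CD14 averaged 6.68 CPM in treated and 7.32 CPM in untreated cells. In that order, the means were 4.18 and 3.43 CPM for CSF1R and 2.63 and 4.12 CPM for LYZ. In bulk libraries, fewer cells of a type and less RNA per cell cannot be told apart.

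The host of MIR30E and MIR30C1, NFYC (ENSG00000066136), was expressed at an even level. It stood at 31.4, 34.7 and 34.1 CPM in treated cells, against 35.0, 33.7 and 33.6 CPM in untreated cells. The groups overlapped, and the log2 fold change was -0.03 (SE 0.15; edgeR adjusted p = 0.9999). LINC00472, the host of MIR30A and MIR30C2, had 0 counts in all 6 libraries, which allows at most 0.164 to 0.192 CPM per library (3 counts over the raw total, with no TMM factor). The precursor genes MIR30A to MIR30E were at 0 as well; mRNA libraries are not made to hold such short transcripts.

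Whether known targets were lower in cells given M2-exo was asked of 31 genes reported as targets of miR-30 5p arms. Of these, 26 had enough counts to test. None passed the adjusted threshold of 0.05, in a comparison in which edgeR called 0% of 15084 genes higher and 0% lower. The fold change was above 0 for 15 and below 0 for 11, or 42.3% below 0 against 52.9% of all genes tested. The median log2 fold change was 0.03 for the list and -0.01 for all genes. For 19 of the 26, or 73.1%, the 95% interval lay within a 2-fold change in either direction, against 75.8% of all genes. Before adjustment, p was under 0.05 for VIM alone in the list, or 1 gene, and for 111 of all genes, or 0.736%. DESeq2 also called 0 genes.

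Snail, encoded by SNAI1, is a repressor of E-cadherin. It stood at 6.36, 11.4 and 13.3 CPM in treated cells, against 3.56, 7.94 and 10.8 CPM in untreated cells. The groups overlapped widely, and the log2 fold change was 0.47 (SE 0.40; edgeR adjusted p = 0.9999). Beclin 1, encoded by the autophagy gene BECN1, stood at 46.5, 44.1 and 42.6 CPM in treated and 45.7, 44.8 and 45.6 CPM in untreated cells. Its log2 fold change of -0.03 had a 95% interval from -0.35 to 0.29.

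The actin-binding gene TWF1 averaged 320 ± 33.2 CPM in treated and 306 ± 84.1 CPM in untreated cells (SD, n = 3 each), and its log2 fold change was 0.06 (95% interval -0.38 to 0.51). The matricellular gene CCN2 averaged 11.6 ± 3.01 CPM in treated and 11.3 ± 2.29 CPM in untreated cells (log2 0.04, 95% interval -0.52 to 0.61). MTTP, which loads lipid onto lipoproteins, was scarce, at 0.600 ± 0.341 CPM in treated and 0.608 ± 0.378 CPM in untreated cells. None of these 3 genes passed, and their groups overlapped.

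Among the 4 largest fold changes of the list were those of VIM, PIK3CD (log2 0.51, SE 0.45) and SNAI1. Leaving out single libraries moved PIK3CD between 0.19, without untreated replicate 1, and 0.72, without untreated replicate 2. It moved SNAI1 between 0.15, without untreated replicate 1, and 0.85, without untreated replicate 3. VIM encodes vimentin, the intermediate filament protein of mesenchymal cells. It had 17 counts in each of the 3 treated libraries, against 7, 9 and 9 in the untreated ones. In CPM this was 0.957, 0.976 and 0.948 in treated and 0.445, 0.503 and 0.506 in untreated cells. It was the one listed target whose groups did not overlap with treated above untreated, which held for 1.65% of all genes, and none was the other way round, which held for 2.30%. The log2 fold change was 0.97 (SE 0.40, unadjusted p = 0.0369, edgeR adjusted p = 0.9999), so VIM did not pass. The unadjusted p of VIM was 0.0353 in edgeR with RLE size factors, another scaling, and 0.132 with DESeq2. In edgeR it was 0.0915 with no filter on low counts and 0.0725 to 0.0914 when single libraries were left out.

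Among the 4 smallest were PRDM1, the BLIMP1 repressor gene, at 10.1 ± 1.97 CPM in treated and 12.1 ± 2.58 CPM in untreated cells (log2 -0.25, SE 0.24), then the Notch ligand gene DLL4 (-0.13, SE 0.34) and the ecto-nucleotidase gene NT5E (-0.11, SE 0.31). Without single libraries PRDM1 ranged from -0.40, without treated replicate 1, to -0.06, without untreated replicate 2. None passed (edgeR adjusted p = 0.9999 each). XBP1, a stress response factor reported as a target of a miR-30c 3p arm, stood at 246 ± 24.7 CPM in treated and 238 ± 18.5 CPM in untreated cells (log2 0.05, SE 0.14, not passing). The listed targets were thus not shown to differ. For MTTP, whose log2 interval ran from -1.46 to 1.40, a 2-fold change either way lay within the interval. A 2-fold rise, though not a 2-fold fall, also lay within some other intervals. Among these were SNAI1 (-0.44 to 1.38), PIK3CD (-0.51 to 1.54) and VIM (0.07 to 1.87).

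**Figure D4:**
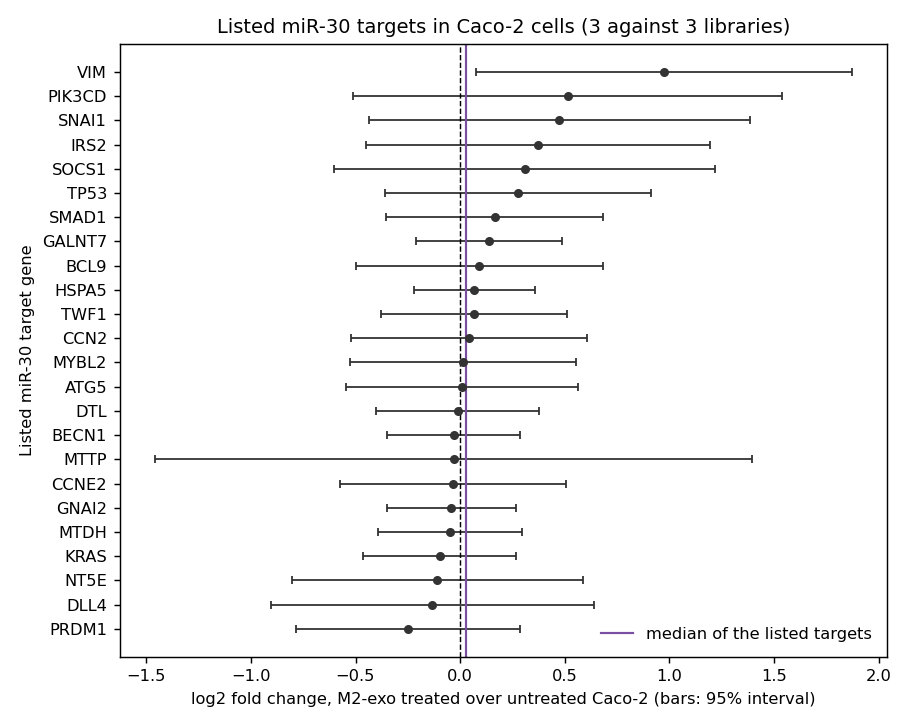
log2 fold change of M2-exo treated over untreated Caco-2 cells (3 libraries each, edgeR; bars are 95% intervals) for 24 of the 26 tested genes of the miR-30 target list. The purple line marks the list median of 0.03; among the genes drawn, intervals span 0 for all but VIM, and no gene passed the adjusted threshold.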

How the data were processed

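Read counts per miRNA and TPM values of 1 M2-exo and 1 M0-exo library, and gene counts of 6 Caco-2 libraries, were used as deposited by the authors. Bowtie (exosomes) and CASAVA, HISAT2, featureCounts and GRCh38 (Caco-2) are named in the submitters' processing notes; versions, miRNA database and strand setting are not stated there. The TPM values deposited by the authors are each count over the column total (largest difference 4.06e-05), so counts were used. Of the gene counts, 3 columns match no sample and were not used; the FPKM table was not used.

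Shares were compared as ratios with exact binomial intervals (scipy 1.17.1). For Caco-2 the test was edgeR 4.0.16 (R 4.3.3) with filterByExpr, TMM, a quasi-likelihood F test, 2-sided, Benjamini-Hochberg adjustment. SE was the log2 fold change over the square root of F. DESeq2 1.42.0, other scalings and filters, a replicate block and left-out libraries were alternatives. Scripts were tested on simulated data. Nothing says that replicates are separate cultures; p-values then reflect the spread of these libraries, which may be technical.

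The members and lists were chosen with earlier results of these data known. The target list was assembled from general knowledge of published targets and not checked against a database. Named genes were the 4 highest and 4 lowest fold changes of the list, 6 fixed targets, XBP1, hosts and precursors; 2 genes of the target list are counted but not reported here by name.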

Additional observations from a re-analysis of the deposited data

How the results depend on the processing

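As log2 of the M2-exo over M0-exo ratio, the family value of 0.38 became 0.0461 with TMM factors, 0.0848 with median ratios, 0.24 on the total without miR-21-5p and 0.0372 without miR-30c-5p. The 5p arms at 0.45 became 0.12, 0.16, 0.31 and 0.26 in that order, and miR-30c-5p at 0.51 became 0.17 with TMM factors and 0.21 with median ratios. Without miR-30c-5p, the 3p share of the family was 15.5% in M2-exo and 27.4% in M0-exo. The count of 0 of 31 entries past 2-fold became 6 of 64 with a minimum of 20 counts and 13 of 84 with a minimum of 10. Past 1.5-fold it was 8 of 31. In that order, 0, 0 and 1 miR-30 entries were among them. The 3p sum without miR-30e-3p, and miR-30c against a single 3p arm, could not be computed. In Caco-2, edgeR called 6 genes with no filter, and 0 to 1 when each library was left out, with the 1 reached without treated replicate 2. The list median ranged there from -0.005, without treated replicate 1, to 0.10. Without single libraries, log2 fold changes changed sign for BECN1 (-0.0457 to 0.0127), CCN2 (-0.17 to 0.22), DLL4 (-0.28 to 0.0943), MTTP (-0.43 to 0.55), NFYC (-0.0588 to 0.0324), NT5E (-0.32 to 0.13), TWF1 (-0.0767 to 0.31) and XBP1 (-0.00461 to 0.13). With the replicate number as a block, 0 genes were called and the list median was 0.04. The block gave 211 genes with an unadjusted edgeR p below 0.05, against 111 without it. Its lowest edgeR adjusted p was 0.415, against 0.9999 without it. The unadjusted p under the block was 0.0764 for VIM and 0.0289 for SNAI1. Deviations of same-numbered libraries correlated at 0.28, -0.06 and 0.48, and those of differently numbered ones at between -0.42 and 0.18. The labels do not tie the numbers to a shared batch, so the main comparison held no block. Whether the numbers pair the libraries was not tested. Depth limits the scarce members most: their intervals span more than a 2-fold range.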
